A study of Mus musculus with 4 samples.

Results

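The genes described here are 42 genes of mitosis and the mitotic spindle, a set of mitotic cyclins and kinases, kinetochore and checkpoint proteins, spindle motors, cytokinesis factors and condensin subunits. They were chosen by gene symbol, and all 42 were found among the 35976 symbols of the count files. All 42 also passed the filter on low counts, which left 20389 genes. The comparison was between 2 libraries from Cxxc1 F/F :Lck-cre mice (knockout, KO) and 2 libraries from Cxxc1 +/+ :Lck-cre mice (control). Both genotypes carried the Lck-cre transgene, in which a T-lineage promoter drives the recombinase, so the control mice differed in having no floxed Cxxc1. The cells were FACS-purified thymocytes, CD24+TCRb-CD4+CD8a+, called double-positive (DP), and were profiled in bulk. Ages are not given in the labels, nor is the number of animals behind a library. The product of Cxxc1 recognises unmethylated CpG sites through a CXXC domain and is a subunit of SETD1, a methyltransferase for lysine 4 of histone H3.

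In dividing cells, cyclin B with Cdk1 starts mitosis, the kinetochore links each chromosome to spindle microtubules, and the spindle checkpoint holds the anaphase-promoting complex (APC/C) inactive until every chromosome is attached. Most genes of this kind are transcribed mainly in G2 and mitosis, so their level in a bulk sample follows the share of cells in those phases. In the thymus, cells divide as they pass from the CD4 and CD8 double-negative (DN) stage into the DP compartment, after which most DP cells rest. In bulk RNA, fewer dividing cells and less mitotic RNA per dividing cell cannot be told apart.

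The files hold raw read counts, with 36243182 and 33544428 counts in KO 1 and KO 2, and 12150508 and 34820446 in control 1 and control 2. Levels are CPM, counts scaled to a common library size with TMM factors. Fold changes are log2 of KO over control ± standard error from edgeR's quasi-likelihood fit to all genes, with Benjamini-Hochberg adjustment over all genes tested, and calls were made where that adjusted value was under 0.05. The labels do not state that replicates are separate animals, and the spread behind each p-value may therefore be technical. Cxxc1 had 35.7 and 39.4 CPM in the KO libraries, against 111 and 53.5 CPM in the controls, a log2 fold change of -1.12 that was not called (adjusted p = 0.199). The DP markers Cd4 and Cd8a were present in every library but called lower in the KO. Cd4 had 142 and 277 CPM in the KO libraries, against 893 and 896 CPM in the controls (-2.09, adjusted p = 0.0355 by edgeR). Cd8a had 258 and 478 CPM in the KO libraries, against 1258 and 1811 CPM in the controls (-2.06, adjusted p = 0.0442 by edgeR). The summed level of 9 DP markers was 4961 and 7534 CPM in the KO libraries, against 10811 and 14269.5 CPM in the controls. All 9 were lower by point estimate and 3 were called lower (Cd4, Cd8a and Dntt). The largest part of each sum was Rag1, at 2997 and 4488 CPM in the KO libraries, against 4967 and 7055 CPM in the controls. Rag1 was not called (adjusted p = 0.357 by edgeR), and Rag2, Cd24a and Cd3e differed least, at -0.13, -0.16 and -0.19. The summed level of 9 DN-stage genes was 919.9 and 521 CPM in the KO libraries, against 181 and 143 CPM in the controls. Of these 9, 4 were called higher, 0 lower and 1 (Cd7) was too low to test. Cd44 lay on the other side, at 11.65 and 15.003 CPM in the KO libraries, against 30.3 and 35.2 CPM in the controls (-1.30, adjusted p = 0.124 by edgeR).

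None of the 42 mitosis and spindle genes was called changed in KO DP thymocytes by edgeR's quasi-likelihood test. Among all genes tested, 92 of 20389 were called (0.451%), 0.27% higher and 0.181% lower. Their point estimates nevertheless lay on one side, with 41 of the 42 lower in the KO and Smc2 the exception. With library totals as the scaling Bub1 also had a positive sign, at 0.0011, which left 40 lower. Of all genes tested, 52.4% were lower. The differences were small, with a median log2 fold change of -0.33 for the members and -0.044 for all genes tested, and a member range of -0.95 to 0.034. At an unadjusted p below 0.05, 5 members were lower and 0 higher, which is 11.9% of the members, while 6.91% of all genes tested were lower and 6.97% higher at that level. DESeq2 called 1 member, Ube2c, as lower, and 4.64% of all genes tested, 2.16% higher and 2.48% lower. KO 1 and KO 2 were both below the 2 controls for 17 of the 42 members, against 24% of all genes tested, and the reverse held for none, against 22.8%. The members vary together from library to library, so these counts are not 42 separate observations. All genes tested include many of lower level than any member. Of the 7722 at or above the mean level of the lowest member, 3515 were lower and 4207 higher, with a median of 0.044. At an unadjusted edgeR p below 0.05, 550 of these were lower and 700 higher, together 16.2%. Both KO libraries were below both controls for 21.6% of the 7722 and above for 25.9%. The 95% intervals of all 42 lay below a 2-fold rise, and those of 26 lay above a 2-fold fall, so for the other 16 a 2-fold fall was within the interval.

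**Figure D1:**
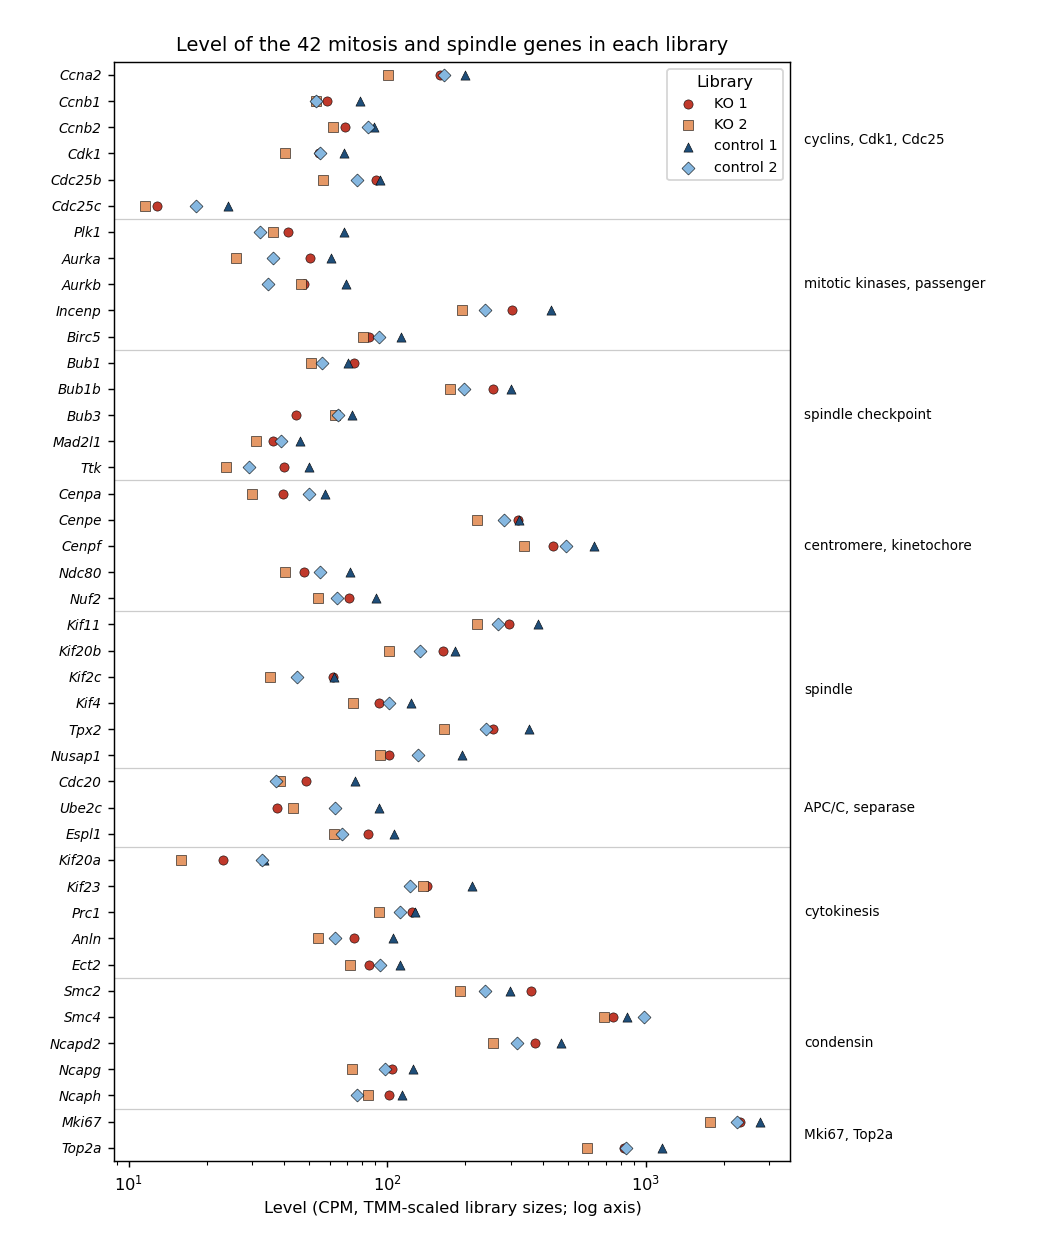
Level of each of the 42 members in CPM (log axis) in KO 1, KO 2, control 1 and control 2, grouped by role. KO 2 is the lowest library for 34 members and control 1 the highest for 39, while KO 1 and control 2 lie between and change places from gene to gene. Among all 20389 genes tested, KO 2 is lowest for 3912 and control 1 highest for 5723.

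The spread between libraries of 1 genotype was as wide as the difference between genotypes. The summed level of the 42 members was 8756 and 6596 CPM in KO 1 and KO 2, against 10944 and 8526 CPM in control 1 and control 2. KO 1 therefore lay above control 2, and the groups overlapped. The group means were 7676 ± 1527 CPM in the KO and 9735 ± 1710 CPM in the control (SD, n = 2 each). Member by member, KO 1 was above KO 2 for 40 genes with a median log2 ratio of 0.40, and control 1 was above control 2 for 41 genes with a median log2 ratio of 0.42. For all genes tested the same median ratios were -0.036 and 0, so the shift within genotypes was not one of all genes. KO 1 was above control 2 for 25 of the 42 and above control 1 for 2, and KO 2 was above control 2 for 6 and above control 1 for 0. Control 1, the library with the fewest counts, was the highest of the 4 for 39 members, and for 5723 of the 20389 genes tested. KO 2 was the lowest for 34 members, and for 3912 of the 20389 genes tested.

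**Figure D2:**
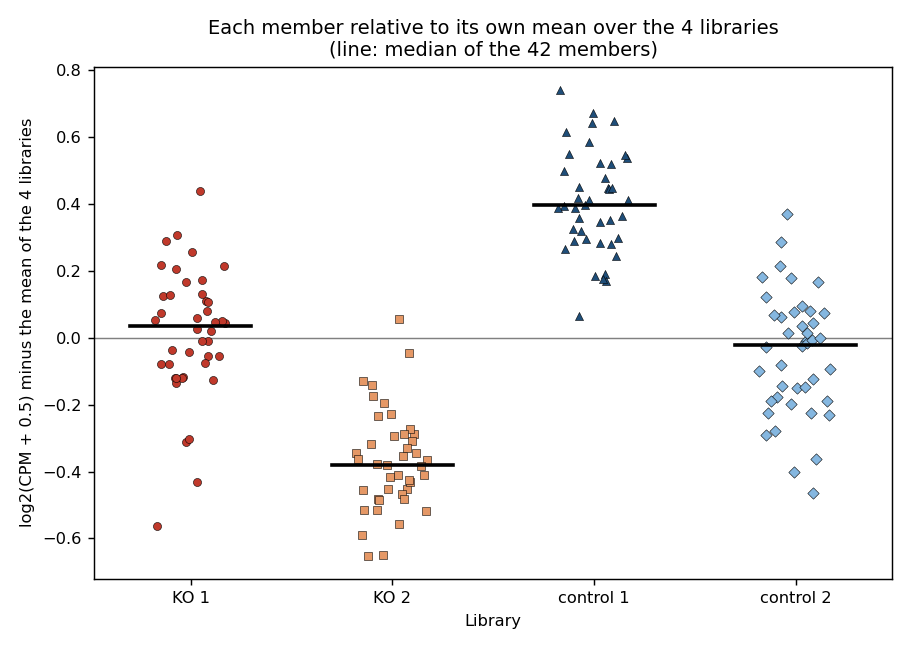
Each point is a member's log2(CPM + 0.5) minus its own mean over the 4 libraries, and lines are medians over the 42. The medians are 0.036 in KO 1, -0.38 in KO 2, 0.40 in control 1 and -0.021 in control 2.

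The size of the difference rested largely on control 1 and, to a lesser extent, on KO 2. Without control 1 the member median was -0.039, with 26 of the 42 lower in the KO and 0 members called. Without control 2 it was -0.54, with all 42 lower and 1 called (Ube2c, adjusted p = 0.0378 by edgeR), where 3.73% of all genes were called. Without KO 1 it was -0.51 with all 42 lower, and without KO 2 it was -0.16 with 31 lower, and 0 members were called in either. Of the 42, 22 kept their sign in all 4 fits that left out a library. Those included all 5 members with an unadjusted p below 0.05. In these 5 both KO libraries were below both controls, so leaving out 1 library could hardly change their sign. Of the 22, 19 moved by over 1.5 times in at least 1 of these fits.

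**Figure D3:**
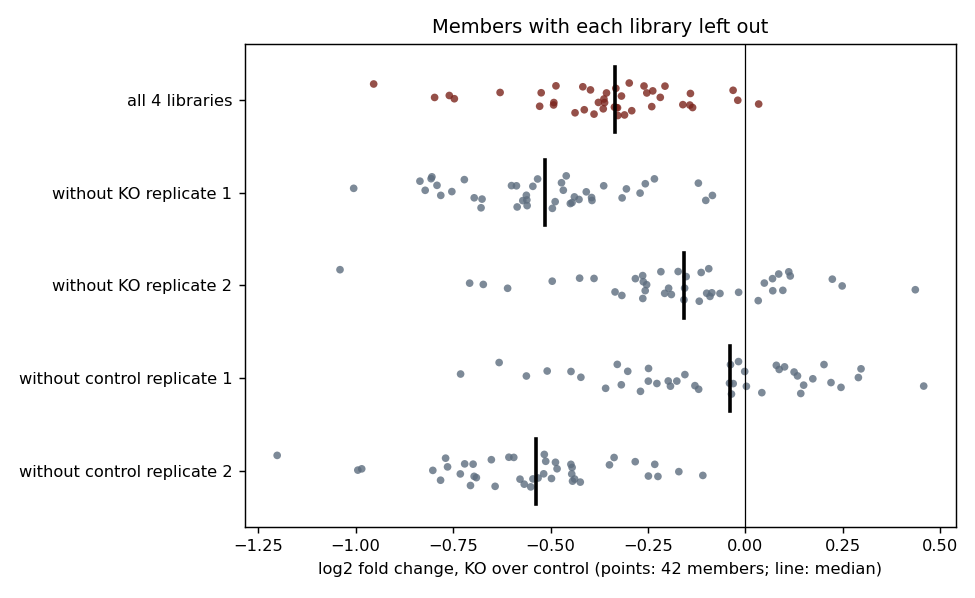
log2 fold changes of the 42 members with all 4 libraries and with each library left out in turn; lines are medians. The median is -0.33 with all libraries and lies between -0.54 and -0.039 when 1 is left out. It is nearest to 0 without control 1, and next nearest without KO 2 (-0.16).

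The promoters of these genes share elements that the choice by symbol did not use. Many mitotic promoters are known to carry a cell cycle genes homology region, written TTTGAA, that is bound by the MuvB complexes together with B-MYB or in the repressive DREAM complex, and CCAAT boxes bound by NF-Y. RefSeq promoter windows of 300 bases on GRCm38.p6, 250 bases before to 50 after the annotated start, were found for 35 of the 42 members, 3 of them with 2 windows. TTTGAA, sought on both strands, was present for 26 of the 35 genes, in 76.3% of their 38 windows. It was in 17.9% of all 32851 windows of that length and 13.9% of the windows of the genes tested. CCAAT on either strand was also present for 26 of the 35, and in 76.3% of their windows against 37.4% of all windows. Where TTTGAA and CCAAT adjoin they can share 1 base. Both occurred in 65.8% of the members' windows and in 6.95% of all windows. CpG dinucleotides, the bases that CXXC1 contacts, numbered a median of 24.5 in the members' windows, 15 in those of all genes tested and 7 in all windows. Within the set, the 26 genes with TTTGAA had a median log2 fold change of -0.35 and the 9 without had -0.24. Their ranges overlapped widely, at -0.95 to 0.034 with TTTGAA and -0.75 to -0.019 without, and the difference was not tested. The 18 genes at or above the members' median CpG number had -0.33 and the 17 below it also -0.33. A match is a description of letters and does not show binding.

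Promoter windows are printed for Ube2c and Nusap1, the members with the smallest p-values, which differ in these motifs, and for Cdk1 and Ccnb2, which hold the catalytic and a cyclin subunit of the mitotic kinase. Capitals mark TTTGAA and CCAAT or their reverse complements TTCAAA and ATTGG. The Ube2c window (chr2:164769679-164769978, plus strand) holds 1 TTTGAA on the opposite strand, starting 29 bases before the start, and 6 CCAAT matches, of which 1 on each strand overlap in a palindrome. The Nusap1 window (chr2:119618048-119618347, plus strand) holds neither. The Ccnb2 window (chr9:70421505-70421804, minus strand) holds 2 TTTGAA and 3 CCAAT. The Cdk1 window (chr10:69352863-69353162, minus strand) holds 2 TTTGAA and 3 CCAAT on the opposite strand.
Ube2c: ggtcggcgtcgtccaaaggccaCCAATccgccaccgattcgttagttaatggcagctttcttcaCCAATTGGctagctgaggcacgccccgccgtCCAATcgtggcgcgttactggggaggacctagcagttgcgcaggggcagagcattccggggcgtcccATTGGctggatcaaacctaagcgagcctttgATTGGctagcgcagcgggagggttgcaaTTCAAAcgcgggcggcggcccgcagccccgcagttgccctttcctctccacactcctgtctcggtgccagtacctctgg
Nusap1: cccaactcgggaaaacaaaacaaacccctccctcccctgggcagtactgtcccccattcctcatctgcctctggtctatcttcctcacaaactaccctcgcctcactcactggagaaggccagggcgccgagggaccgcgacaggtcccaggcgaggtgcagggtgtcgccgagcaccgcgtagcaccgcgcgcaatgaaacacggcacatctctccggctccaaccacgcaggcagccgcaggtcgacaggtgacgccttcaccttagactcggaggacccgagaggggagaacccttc
Ccnb2: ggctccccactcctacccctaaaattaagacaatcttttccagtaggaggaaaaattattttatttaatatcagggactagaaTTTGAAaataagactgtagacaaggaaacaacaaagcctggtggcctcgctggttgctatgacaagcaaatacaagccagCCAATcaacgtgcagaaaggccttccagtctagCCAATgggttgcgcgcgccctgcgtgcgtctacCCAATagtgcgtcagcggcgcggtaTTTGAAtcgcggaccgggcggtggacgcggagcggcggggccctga
Cdk1: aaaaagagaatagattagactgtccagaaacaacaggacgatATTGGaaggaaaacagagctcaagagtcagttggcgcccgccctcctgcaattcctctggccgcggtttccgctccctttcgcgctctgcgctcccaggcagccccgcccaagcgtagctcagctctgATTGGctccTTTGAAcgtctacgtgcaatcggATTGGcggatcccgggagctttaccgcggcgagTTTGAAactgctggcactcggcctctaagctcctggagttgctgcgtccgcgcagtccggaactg

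Among the genes that start mitosis, all 6 were lower in the KO by point estimate and none was called. Both KO libraries were below both controls for 4 of the 6, against 24% of all genes tested. Cdk1, the mitotic kinase, had 54.4 and 40.1 CPM in the KO libraries, against 68.0 and 54.7 CPM in the controls. KO 1 and control 2 nearly met, and the log2 fold change was -0.38 ± 0.27 (adjusted p = 0.604). Ccnb1, which encodes cyclin B1, had 58.3 and 53.0 CPM in the KO libraries, against 78.5 and 53.0 CPM in the controls. Control 1 alone stood apart, and the log2 fold change was -0.24 ± 0.27 (adjusted p = 0.774). Ccnb2, which encodes cyclin B2, had 68.7 and 61.4 CPM in the KO libraries, against 89.0 and 84.3 CPM in the controls. Here the groups did not overlap, with replicates closer together than for most members, at -0.41 ± 0.22 (adjusted p = 0.460). Cdc25c, the phosphatase that activates Cdk1 (chromosome 18, 34732993 to 34751533 on GRCm38), had 12.8 and 11.6 CPM in the KO libraries, against 24.3 and 18.2 CPM in the controls. Its fold change was the second lowest of the set, at -0.80 ± 0.35 (adjusted p = 0.354), and its level was the lowest. Ccna2, which encodes cyclin A2, had -0.49 ± 0.27, and its KO 1 level of 160 CPM was close to the 165 CPM of control 2. Cdc25b had -0.21 ± 0.28, with overlapping groups.

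Among the mitotic kinases and the chromosomal passenger complex, 4 of 5 genes differed more between the 2 control libraries than between genotypes. Plk1, the polo-like kinase of mitotic entry and exit, had 41.4 and 36.3 CPM in the KO libraries, against 68.1 and 32.1 CPM in the controls. Aurkb, the kinase of the passenger complex, had 47.7 and 46.5 CPM in the KO libraries, against 69.2 and 34.7 CPM in the controls. In both genes the KO libraries lay between the control libraries, and the log2 fold changes were -0.36 ± 0.36 and -0.14 ± 0.33. Incenp, the scaffold of that complex, had 305 and 195 CPM in the KO libraries, against 429 and 239 CPM in the controls (-0.42 ± 0.33, adjusted p = 0.641). Birc5, which encodes the passenger protein survivin, had 84.7 and 80.2 CPM in the KO libraries, against 112.9 and 92.8 CPM in the controls. It was the 1 member of the 5 with both KO libraries below both controls (-0.32 ± 0.23, adjusted p = 0.607 by edgeR). That order held for 24% of all genes tested. Aurka, the spindle pole kinase, had -0.33 ± 0.38.

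The spindle checkpoint genes were lower by at most 0.36 on the log2 scale. For 2 of 5 both KO libraries were below both controls, against 24% of all genes tested. Bub3, which recruits checkpoint proteins to kinetochores, had 44.5 and 62.5 CPM in the KO libraries, against 73.3 and 64.2 CPM in the controls (-0.36 ± 0.26, adjusted p = 0.610). It departed from the pattern of the set, since KO 1 and not KO 2 was its lowest library, as it was for Ube2c. Mad2l1, the Mad2 inhibitor of Cdc20, had 36.3 and 31.2 CPM in the KO libraries, against 46.0 and 38.9 CPM in the controls (-0.33 ± 0.27, adjusted p = 0.661). Bub1, a checkpoint kinase, had 74.1 and 50.5 CPM in the KO libraries, against 70.6 and 55.9 CPM in the controls. The groups interleaved, with a log2 fold change of -0.019 ± 0.27. Bub1b, which encodes BubR1, and the checkpoint kinase gene Ttk had -0.22 ± 0.29 and -0.31 ± 0.36, both with overlapping groups.

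Of the 5 centromere and kinetochore genes, 3 had both KO libraries below both controls, against 24% of all genes tested. The 5 had the lowest median log2 fold change of the role groups with all 4 libraries, -0.52. That median was -0.69 to -0.30 when a library was left out, and without control 2 the group of Ube2c, Cdc20 and Espl1 was lower, at -0.78. Cenpa, the centromeric histone H3 variant (chromosome 5, 30666777 to 30674830), had 39.5 and 30.0 CPM in the KO libraries, against 57.6 and 49.9 CPM in the controls. Both KO libraries were below both controls, at -0.63 ± 0.27 (adjusted p = 0.351). Cenpf, a large outer kinetochore protein, had 439 and 338 CPM in the KO libraries, against 631 and 490 CPM in the controls (-0.53 ± 0.25, adjusted p = 0.389). Ndc80, the microtubule-binding subunit of the outer kinetochore, had 47.6 and 40.2 CPM in the KO libraries, against 71.7 and 54.7 CPM in the controls (-0.52 ± 0.26, adjusted p = 0.421). Its partner Nuf2 had -0.30 ± 0.27 and the kinetochore motor gene Cenpe -0.16 ± 0.25, with KO 1 above control 2 in both.

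Of the 6 spindle genes, Nusap1 and Kif4 had both KO libraries below both controls, an order that held for 24% of all genes tested. Nusap1, a protein that bundles spindle microtubules (chromosome 2, 119618298 to 119651244), had 101.3 and 93.5 CPM in the KO libraries, against 195 and 132 CPM in the controls. The KO libraries were close to each other and below both controls, at -0.75 ± 0.25 (adjusted p = 0.240). Kif4, a chromosome-bound kinesin, had 92.6 and 73.6 CPM in the KO libraries, against 124 and 101.2 CPM in the controls (-0.44 ± 0.24, adjusted p = 0.465). Tpx2, the activator of Aurora A on the spindle, had -0.49 ± 0.29, and Kif11, the motor that separates spindle poles, had -0.33 ± 0.26. Kif20b and the microtubule-depolymerising kinesin gene Kif2c had -0.25 ± 0.28 and -0.14 ± 0.32, and in all 4 of these KO 1 was above control 2.

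Ube2c, the ubiquitin-conjugating enzyme of the APC/C (chromosome 2, 164769898 to 164778822), had the lowest fold change and the smallest p-value of the 42. It had 37.5 and 43.1 CPM in the KO libraries, against 93.1 and 63.0 CPM in the controls. Both KO libraries were well below both controls, at -0.95 ± 0.27, or 0.516 of the control level, with a 95% interval of -1.57 to -0.34. The adjusted p was 0.182 by edgeR's quasi-likelihood test, which did not call it. It was 0.0390 by DESeq2 and 0.0428 by edgeR with no low-count filter, and it ran from 0.00275 to 0.588 over all alternatives. Tnnc2 on the opposite strand shares 22.8% of the Ube2c exon length in the GENCODE annotation, and had 1.98 and 1.55 CPM in the KO libraries, against 2.27 and 0.548 CPM in the controls. Cdc20, the APC/C activator, had 48.4 and 38.4 CPM in the KO libraries, against 75.1 and 37.0 CPM in the controls (-0.36 ± 0.35, adjusted p = 0.721). The KO libraries lay between the controls. Espl1, which encodes separase, had -0.24 ± 0.29, also with overlapping groups.

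Of the 5 cytokinesis genes, Kif20a and Ect2 had both KO libraries below both controls, an order that held for 24% of all genes tested. Kif20a, the central spindle kinesin (chromosome 18, 34624613 to 34633277), had 23.2 and 15.9 CPM in the KO libraries, against 33.5 and 32.8 CPM in the controls. The controls were nearly equal and both KO libraries lower, at -0.76 ± 0.32 (adjusted p = 0.335). Cdc23 on the opposite strand shares 29.3% of the Kif20a exon length and had 55.2 and 40.0 CPM in the KO libraries, against 46.3 and 58.7 CPM in the controls. Opposite-strand genes also share 11.1% to 15.1% of the exon length of Ccna2, Cdc25c, Kif4, Ncapg and Prc1. The strand setting of the counting (not given in the sources used here) decides whether such reads are kept apart. Ect2, the RhoA activator of the cleavage furrow, had 84.7 and 71.6 CPM in the KO libraries, against 112 and 93.9 CPM in the controls (-0.40 ± 0.23). Anln had -0.39 ± 0.30, Kif23 had -0.26 ± 0.28 and Prc1, which crosslinks central spindle microtubules, had -0.14 ± 0.24.

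Of the 5 condensin I subunit genes, 4 were lower by point estimate and KO 2 was the lowest library for 4. Smc4, a condensin ATPase, had 745 and 688 CPM in the KO libraries, against 847 and 987 CPM in the controls, and was the 1 member highest in control 2 (-0.36 ± 0.23, adjusted p = 0.549). Smc2, its partner in the same heterodimer, had 359 and 191 CPM in the KO libraries, against 299 and 239 CPM in the controls. KO 1 was the highest and KO 2 the lowest library, at 0.034 ± 0.31. The regulatory subunit genes Ncapd2, Ncapg and Ncaph had -0.33 ± 0.28, -0.34 ± 0.26 and -0.031 ± 0.26, each with overlapping groups.

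Mki67, the gene of the proliferation antigen Ki-67 (chromosome 7, 135689784 to 135716361), had 2318 and 1766 CPM in the KO libraries, against 2756 and 2243 CPM in the controls. KO 1 lay above control 2, and the log2 fold change was -0.29 ± 0.26 (adjusted p = 0.691). Top2a, the topoisomerase that untangles sister chromatids (chromosome 11, 98992943 to 99024189), had 825 and 594 CPM in the KO libraries, against 1157 and 839 CPM in the controls. The groups did not overlap but KO 1 and control 2 nearly met, at -0.49 ± 0.27 (adjusted p = 0.465).

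**Figure D4:**
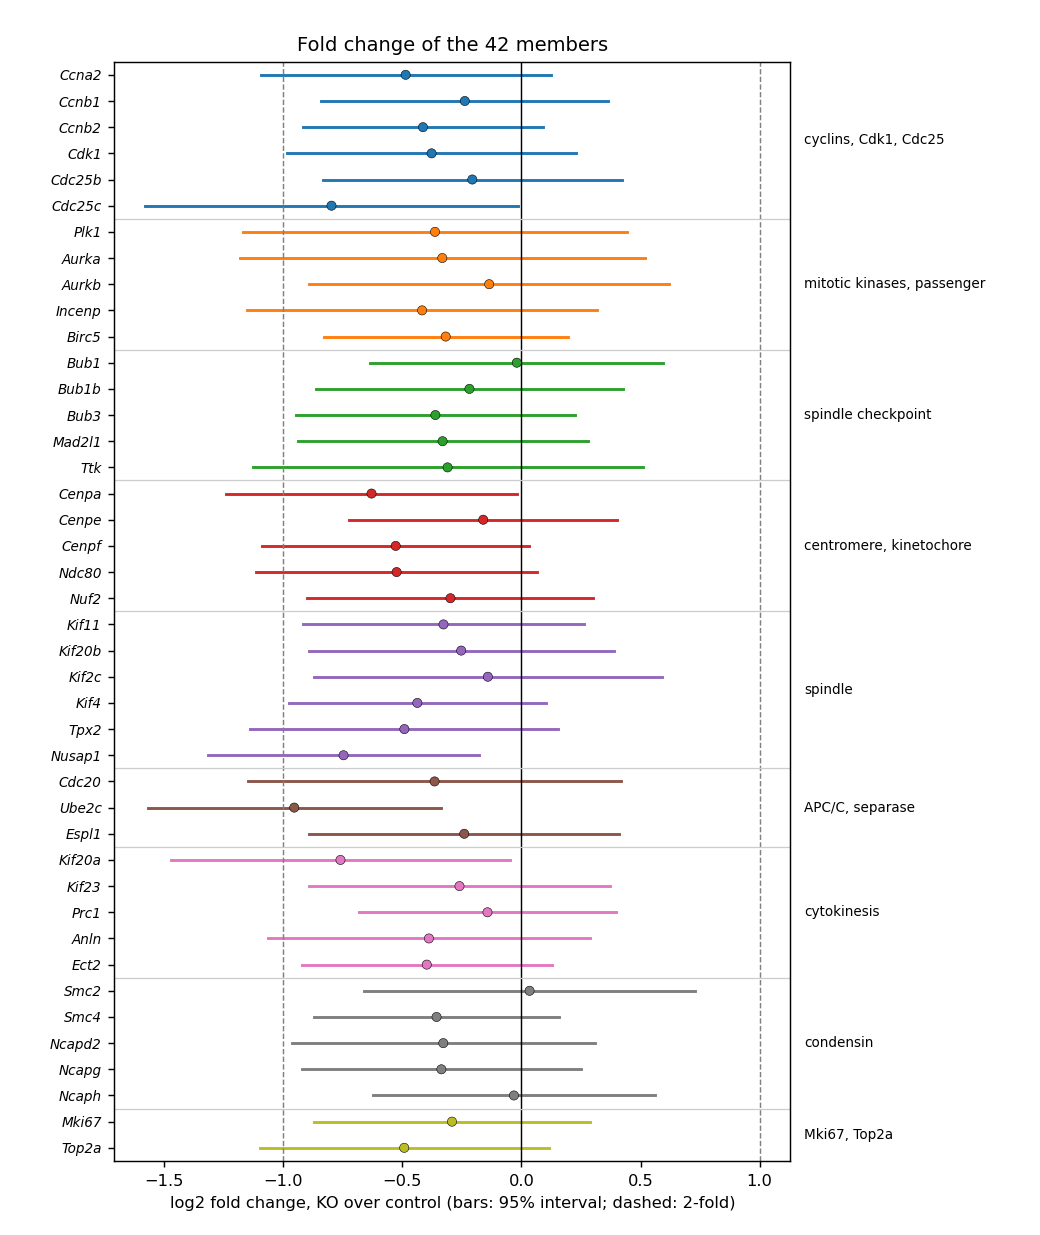
log2 fold change, KO over control, of each member with its 95% interval from edgeR's fit, grouped by role. Points of 41 members are left of 0, the intervals of 37 include 0, and those of Cdc25c, Cenpa, Nusap1, Ube2c and Kif20a do not before adjustment for the number of genes tested.

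Per length of annotated exons, the order of the members was much alike in both genotypes. Levels per kilobase were highest for Mki67, at 203 CPM per kb in the KO and 248 in the control, then Smc4 (137 and 176) and Top2a (78.7 and 111). They were lowest for Cdc25c (2.48 and 4.32). By level in the control libraries, the members stood between the 66.7th and the 99.9th percentile of genes tested. The largest change in rank was that of Ube2c, 23rd of 42 in the KO and 16th in the control. Exon lengths are unions over GENCODE transcripts, which can exceed the transcripts present.

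Other genes of the cell cycle were taken from lists chosen with earlier results of these data known, and 1 of the 164 tested was called by edgeR, against 9 by DESeq2. The DESeq2 counts below stand beside its 4.64% of all genes tested. Of 33 other spindle and cytokinesis genes, 0 were called and the median log2 fold change was -0.34, with 6 lower and 0 higher at an unadjusted p below 0.05. DESeq2 also called 0. The median was -0.029 without control 1, -0.059 without KO 2 and -0.55 without either KO 1 or control 2. In this list too control 1 was highest for most genes (27) and KO 2 lowest (28), against 5723 and 3912 of the 20389 genes tested. Kif18a, a kinesin that limits chromosome oscillation, had 19.0 and 17.8 CPM in the KO libraries, against 41.3 and 25.99 CPM in the controls (-0.87 ± 0.33, adjusted p = 0.297). Ckap2, a microtubule-associated protein gene, had -0.65 ± 0.26 (adjusted p = 0.316). Of 35 other kinetochore genes, 0 were called and the median was 0.055, with 1 lower and 0 higher at an unadjusted p below 0.05. DESeq2 called 1 gene of this list lower. The sign of the median turned on single libraries, with -0.13 without KO 1, 0.21 without KO 2, 0.28 without control 1 and -0.096 without control 2. The gene at an unadjusted p below 0.05 was Mad1l1, the Mad2 partner, with 178 and 253 CPM in the KO libraries, against 385 and 427 CPM in the controls (-0.91 ± 0.25, adjusted p = 0.163). Cenpu, of the constitutive centromere complex, was higher by point estimate, at 0.76 ± 0.38 (adjusted p = 0.421). The lists of cohesin and condensin II genes and of APC/C subunits and regulators had medians of -0.15 and -0.077 over 18 genes each, with 0 called by either tool and 0 at an unadjusted p below 0.05. When a library was left out, these medians were -0.29 to 0.026 and -0.012 to 0.089. In those lists the genes with the smallest p were the cohesin subunit gene Rad21 (-0.53 ± 0.25), the cohesin loader gene Nipbl (-0.33 ± 0.23), the APC/C inhibitor gene Fbxo5 (-0.59 ± 0.30) and the securin gene Pttg1 (-0.68 ± 0.37).

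Among 26 regulators of mitotic entry, 0 were called, 2 were higher and 3 lower at an unadjusted p below 0.05, and the median was -0.0077, or -0.20 to 0.16 when a library was left out. DESeq2 called 3 of them lower. Foxm1, a transcription factor that activates G2 and mitotic genes, had 128 and 101.03 CPM in the KO libraries, against 214 and 99.5 CPM in the controls (-0.45 ± 0.34, adjusted p = 0.631). Mybl2, which encodes B-MYB, had 89.8 and 39.4 CPM in the KO libraries, against 69.8 and 44.1 CPM in the controls (0.19 ± 0.39, adjusted p = 0.902). Both overlapped between groups. The smallest p-values were those of E2f7 (-1.37 ± 0.33, adjusted p = 0.122), a repressive E2F, and E2f2 (-1.12 ± 0.30, adjusted p = 0.158). Of 8 tested inhibitors of cyclin-dependent kinases and antiproliferative genes, 0 were called by edgeR, 2 by DESeq2 (both lower), and 3 were lower and 0 higher at an unadjusted p below 0.05. Cdkn2d, an inhibitor of Cdk4 and Cdk6, had 13.1 and 20.5 CPM in the KO libraries, against 49.3 and 46.0 CPM in the controls (-1.50 ± 0.32, adjusted p = 0.0880). Cdkn2c, of the same family, had 17.2 and 22.3 CPM in the KO libraries, against 57.6 and 33.9 CPM in the controls (-1.21 ± 0.34, adjusted p = 0.175). Cdkn1b, which encodes p27, had -0.52 ± 0.25 (adjusted p = 0.395), and the p53 target Cdkn1a had 0.93 ± 0.91 (adjusted p = 0.732). Of 26 genes of G1 and S phase, 1 was called, Cdk6, with 639 and 375 CPM in the KO libraries, against 115 and 106 CPM in the controls (2.204 ± 0.29, adjusted p = 0.0212). In that list 3 genes were higher and 1 lower at an unadjusted p below 0.05, and DESeq2 called 2 higher and 1 lower. Ccnd3, which encodes cyclin D3, had 224 and 237 CPM in the KO libraries, against 710.3 and 513 CPM in the controls (-1.41 ± 0.25, adjusted p = 0.0520 by edgeR), and is named after its values were seen. The median of the list was 0.31 with all libraries, -0.14 without KO 1, 0.63 without KO 2 or control 1, and 0.037 without control 2.

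**Figure D5:**
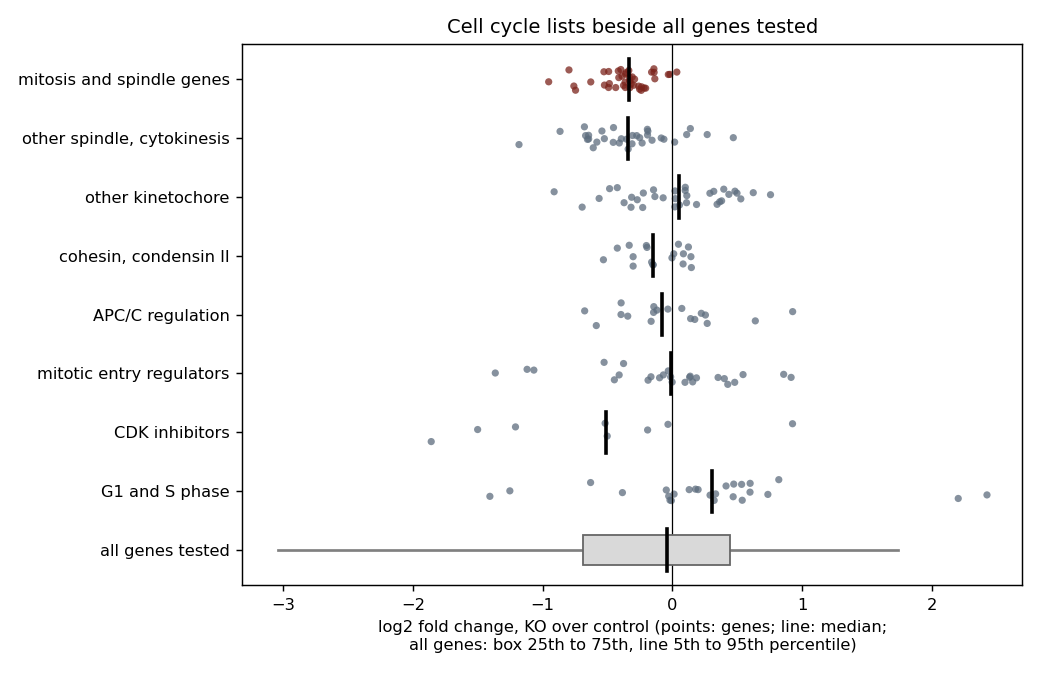
log2 fold change, KO over control, for the 42 mitosis and spindle genes, 7 other cell cycle lists and all genes tested. With all 4 libraries, the members and the other spindle and cytokinesis genes have medians of -0.33 and -0.34, the G1 and S phase genes 0.31 and all genes -0.044, with the 5th to 95th percentile of all genes at -3.04 to 1.74. All genes include many of lower level, with a median standard error of 0.55, against 0.27 for the members.

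Markers of other cells were checked beside these values. Summed erythroid markers were 38.2 and 26.4 CPM in the KO libraries, against 10.3 and 14.9 CPM in the controls, and the 4 globin genes were at 0 in both controls. Most of the KO 2 and control sums was Alas2, at 11.5 and 15.7 CPM in the KO libraries, against 8.24 and 14.0 CPM in the controls. By point estimate 6 of 7 were higher and Slc4a1 was lower, at 0.201 and 0.253 CPM in the KO, against 1.68 and 0.837 CPM. Hba-a1, at 14.6 and 6.49 CPM in the KO libraries, was the 1 called of 7 erythroid genes tested, and none was called in the lists that follow. Summed myeloid markers were 27.8 and 46.2 CPM in the KO libraries, against 16.4 and 26.9 CPM in the controls, and most of each sum was Itgam (23.4 and 41.2 CPM in the KO libraries, against 14.2 and 20.3 CPM in the controls). C1qa was at 0 in both controls and Adgre1 in KO 1, and Fcer1g had 0.172 and 0.112 CPM in the KO libraries, against 0.588 and 1.56 CPM in the controls. Summed stromal and epithelial markers were 116 and 152 CPM in the KO libraries, against 133 and 164 CPM in the controls. Nearly all of it was Pecam1, at 102.2 and 134 CPM in the KO libraries, against 125 and 151 CPM in the controls. By point estimate 6 of the 7 tested were lower and Epcam alone was higher. Epcam had 11.6 and 15.1 CPM in the KO libraries, against 1.09 and 4.88 CPM in the controls. Psmb11 had 0.0574 and 0 CPM in the KO libraries, against 1.177 and 1.385 CPM in the controls. Foxn1 had 0.172 and 0.0562 CPM in the KO libraries, against 1.597 and 1.154 CPM in the controls. Krt5 and Krt8, like Psmb11, were at 0 in KO 2. The summed DN-stage genes were higher in both KO libraries, whereas the mean mitotic sum was lower in the KO, at 7676 CPM against 9735 CPM. Within each genotype replicate 1 had the higher DN-stage sum, 919.9 and 521 CPM in the KO and 181 and 143 CPM in the controls. The largest part of each sum was Notch3, at 408 and 262 CPM in the KO and 91.1 and 71.7 CPM in the controls. Between the controls Cd44, Kit and Hes1 went the other way, and between the KO libraries Cd44 and Cd7 did. Replicate 1 also had the higher mitotic sum, 8756 and 6596 CPM in the KO and 10944 and 8526 CPM in the controls. The part of these cells in the mitotic gene levels was not tested.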

How the data were processed

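Bulk RNA-seq was made from sorted mouse DP thymocytes, 2 libraries per genotype. Per the labels' protocols, total RNA with an integrity number above 8 was extracted with TRIzol and 10 ng went into a SMART-seq Standard library, which amplifies cDNA by PCR. Reads are therefore not separate molecules, and the 3-count floor covers counting error only. The deposited values are whole-number counts by gene symbol, unscaled, with 1 file for each library. The submitters' processing notes list mm10, featureCounts 2.0.8, HISAT2 2.2.1, cutadapt 4.0 and edgeR 3.36.0 without roles. The counting annotation, the strand setting and the handling of multi-mapped reads were not given in the sources used here.

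Groups came from sample titles. In edgeR 4.0.16 under R 4.3.3, genes were kept by filterByExpr (minimum count 10, minimum total 15), scaled by TMM and tested by estimateDisp, glmQLFit and glmQLFTest with genotype as the term. All genes entered the fit and the Benjamini-Hochberg adjustment, and calls were made below 0.05. The standard error is the size of the log2 fold change divided by the square root of F. The common biological coefficient of variation came to 57.4%. Alternatives were DESeq2 1.42.0, RLE scaling, library totals, 2 other filters, edgeR's newer quasi-likelihood setting, a replicate block and leaving out each library. In simulated counts for this comparison (18602 genes) the test recovered 20% of 2-fold and 66% of 4-fold changes, and 4.96% of 141 calls were false. That was a single run, with genes drawn independently and changes planted only in genes of at least 5 CPM. The members vary together between libraries, which the simulation did not include, so these rates need not hold for them. No 2 libraries agreed within counting error, since the lowest chi-square was 57.3 for each degree of freedom. Named were the 2 members with the smallest p in each role group, the 3 highest and 3 lowest fold changes, and Mki67, Top2a, Cdk1 and Ccnb1. Other lists gave their called genes or those with the smallest p, and Foxm1, Mybl2, Cdkn1a, Cdkn1b and Cdkn2c. The members and lists were chosen with earlier results of these data known, so no list was tested as a whole. A further list of marker genes is not reported here. Exon lengths, overlaps and gene spans are from GENCODE M21 (GRCm38, the assembly of mm10), and promoters from RefSeq GRCm38.p6.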

Additional observations from a re-analysis of the deposited data

How the results depend on the processing

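Under 7 alternatives with all 4 libraries and 4 that left out a library, no member was called higher. The count of members called stayed 0 with RLE scaling, library totals, a 5 CPM minimum and edgeR's newer setting, and was 1 (Ube2c) without the low-count filter and with DESeq2. It was 0 to 1 when a library was left out. With the replicate number as a block it was 2, Nusap1 (-0.72) and Ube2c (-0.93), and 7.84% of all genes tested were called. The share of all genes called was 3.01% of 30613 without the low-count filter and 2.1% of 11023 at the 5 CPM minimum. It was 4.64% of 20389 with DESeq2, against 0.451% of 20389 in the fit used above. All genes called numbered 920 with no filter, 231 at a 5 CPM minimum, 947 with DESeq2, 1599 with the replicate block and 223 to 864 when a library was left out, against 92. Calls in the other cell cycle lists were 9 with no filter, 3 at a 5 CPM minimum, 9 with DESeq2, 2 with the newer setting, 15 with the block and 4 to 9 when a library was left out, against 1. The member median was -0.54 to -0.039 when a library was left out and -0.42 to -0.31 in the other fits. Those other fits reuse the same 4 libraries, so their closeness to -0.33 does not measure the spread between libraries. The SD of the member median between replicates was 0.29, nearly as large as the median itself. The labels do not say that equal replicate numbers mark a shared animal or batch. Deviations of same-numbered libraries correlated at r = 0.073 across all genes tested and 0.069 across the members. A low r over all genes cannot show whether an effect is shared by some of them, so whether equal numbers mark pairs is unknown. At an unadjusted edgeR p below 0.05, 12 members were lower with the block and 5 without it, beside 7.51% and 6.91% of all genes tested. Among the members, replicate 1 was above replicate 2 in both genotypes for 39 of 42 (92.9%), against 25.7% of all genes tested. Signs changed for Bub1 with library totals (0.0011) and with no filter (0.0092), and for Smc2 at the 5 CPM minimum (-0.050) and with the block (-0.028). Log2 fold changes that changed sign when a library was left out ranged as follows, and the cause was not tested: Smc2 -0.44 to 0.44, Cdc25b -0.53 to 0.11, Aurka -0.84 to 0.10, Bub1 -0.27 to 0.25, Bub1b -0.48 to 0.13, Ttk -0.68 to 0.14, Cenpe -0.39 to 0.096, Kif20b -0.59 to 0.070, Kif2c -0.55 to 0.22, Prc1 -0.32 to 0.070, Ncaph -0.28 to 0.30, Ccnb1 -0.49 to 0.087, Plk1 -0.80 to 0.29, Aurkb -0.55 to 0.46, Incenp -0.77 to 0.079, Cdc20 -0.78 to 0.25, Espl1 -0.53 to 0.15, Kif23 -0.59 to 0.20, Anln -0.71 to 0.042, Ncapd2 -0.58 to 0.0026. Of members that kept their sign, Mki67 ran from -0.45 to -0.091, Kif11 -0.55 to -0.036, Cdk1 -0.56 to -0.16, Ccna2 -0.81 to -0.17 and Top2a -0.70 to -0.23. Depth limits mainly control 1, where 3 counts are 0.252 CPM, below the level of every member.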
